A study of Mus musculus with 12 samples.

Results

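The ventricular myosin genes were followed in cultured mouse heart muscle cells: the heavy chains Myh6, Myh7 and Myh7b, the light chains Myl2 and Myl3, the light chain kinase Mylk3, and Mhrt, a long non-coding RNA of the Myh6 and Myh7 locus. The members were chosen by gene symbol, with earlier results of these data known, and 7 of the 24704 genes named on the arrays belong to the set. All 7 passed the filter on dim probe sets described below.

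Expression was measured on 12 Affymetrix arrays of myocytes isolated enzymatically, on a Langendorff perfusion system, from the ventricles of 6 adult mice. The WT mice (3) were the corresponding wild type of the DKO mice (3), which lack CaMKIIδ and CaMKIIγ, the forms of calcium/calmodulin-dependent protein kinase II present in heart. Each mouse supplied both an untreated culture and one kept with 100 nM Iso (isoprenaline, an agonist of beta-adrenergic receptors), and each culture was put on 1 array after 24 h. The 4 groups of 3 arrays are therefore untreated WT, Iso-treated WT, untreated DKO and Iso-treated DKO, and arrays 1, 2 and 3 of a genotype come from the same 3 animals in both treatments. The sources used here do not give the promoter or Cre line behind the DKO alleles.

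Myosin is the motor of the muscle thick filament: a pair of heavy chains carries the ATPase head, and each head binds an essential and a regulatory light chain. The adult mouse ventricle uses mainly the fast alpha heavy chain encoded by Myh6, while the slow beta heavy chain encoded by Myh7 is the fetal form and is known to return in stressed hearts. Mhrt is transcribed from the same locus in the direction opposite to Myh7 and is known to bind the chromatin remodeller Brg1, encoded by Smarca4. Myl2 is the ventricular regulatory light chain, Myl3 the ventricular essential light chain, and Mylk3 the cardiac kinase that phosphorylates Myl2.

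Of the members, Myh6, Mhrt and Myh7 lie next to one another. In the RefSeq gene table of assembly GRCm38.p6, Myh6 covers chr14:54941921-54968017 on the minus strand and Myh7 covers chr14:54970684-54994626 on the same strand. Mhrt covers chr14:54968787-54974349 on the plus strand and is annotated as a long non-coding RNA. It begins 769 bp beyond the upstream end of Myh6, and 3666 bp of it, or 65.9% of its length, lie antisense within Myh7. The other protein-coding members are on separate chromosomes: Myh7b at chr2:155611243-155634307, Myl2 at chr5:122092724-122113473, Myl3 at chr9:110763678-110769802 and Mylk3 at chr8:85324928-85386340. The sources used here do not give the build behind the array annotation or the positions and strand of the probes. Cross-hybridisation between Myh6 and Myh7, whose coding sequences are closely alike, and between the antisense partners Mhrt and Myh7 was not tested.

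**Figure D1:**
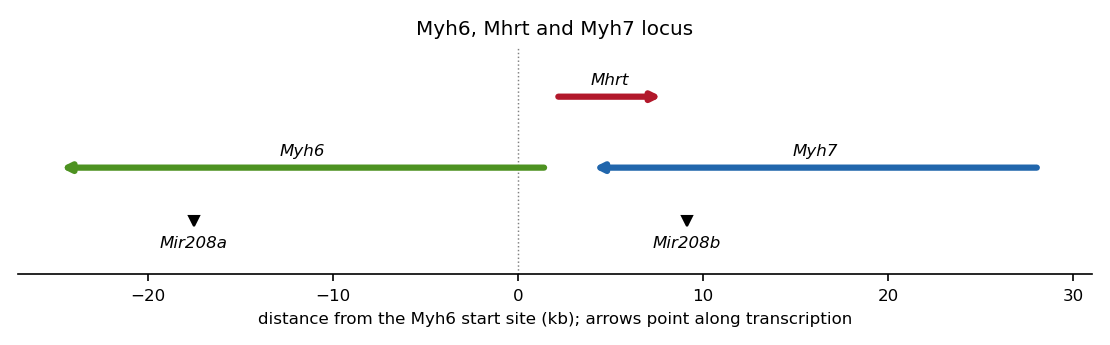
Map of the Myh6, Mhrt and Myh7 genes. The horizontal axis is the distance in kb from the Myh6 start site of the RefSeq promoter table, with a dotted line at 0; arrows point along transcription, and triangles mark the microRNA genes inside the heavy chain genes. Mhrt runs against both heavy chain genes and overlaps the end of Myh7.

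The 250 bases before the annotated start of each of these 3 genes are given because the start of Mhrt lies between the heavy chain genes Myh6 and Myh7. They are from the RefSeq promoter table of GRCm38.p6, written 5′ to 3′ along each gene's own strand. Capitals mark matches to 1 of 5 motifs searched on both strands: the MCAT element CATTCC (bound by TEAD factors), the cyclic AMP response half-site TGACG, the thyroid hormone receptor half-site AGGTCA, the MEF2 box and the CArG box. The windows are chr14:54966608-54966857 (minus strand) for Myh6, chr14:54968537-54968786 (plus strand) for Mhrt and chr14:54994550-54994799 (minus strand) for Myh7, for which the table lists 2 starts. The start listed for Myh6 lies inside the Myh6 span given above, so its window does too. For Myh7 the more downstream of the 2 starts was used, at chr14:54994549. It lies inside the Myh7 span, so part of that window does as well.

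Myh6: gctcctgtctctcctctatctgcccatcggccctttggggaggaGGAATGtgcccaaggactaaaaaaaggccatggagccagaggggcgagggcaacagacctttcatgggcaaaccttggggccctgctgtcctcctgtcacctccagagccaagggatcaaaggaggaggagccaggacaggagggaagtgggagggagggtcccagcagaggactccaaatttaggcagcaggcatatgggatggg

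Mhrt: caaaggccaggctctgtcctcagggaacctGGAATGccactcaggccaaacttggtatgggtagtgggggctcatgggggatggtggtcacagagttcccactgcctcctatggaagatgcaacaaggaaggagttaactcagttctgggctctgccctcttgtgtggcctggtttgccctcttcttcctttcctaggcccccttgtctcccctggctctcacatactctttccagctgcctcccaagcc

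Myh7: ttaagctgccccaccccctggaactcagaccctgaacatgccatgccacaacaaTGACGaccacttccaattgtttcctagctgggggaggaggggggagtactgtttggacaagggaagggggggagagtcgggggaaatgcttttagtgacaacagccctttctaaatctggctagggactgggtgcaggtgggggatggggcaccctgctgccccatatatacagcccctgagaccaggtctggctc

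Both the Myh6 and the Mhrt window held the MCAT letters on the strand opposite to the gene (GGAATG as printed), 206 to 201 bases before the start in Myh6 and 220 to 215 bases before it in Mhrt. The Myh7 window held TGACG, 196 to 192 bases before the start used. Of the 32851 promoter windows of this length in the table, 12.6% held the MCAT letters, 17.8% the TGACG letters, 14.0% AGGTCA, 2.92% a MEF2 box and 1.47% a CArG box. For the MCAT element only the exact letters CATTCC were searched, so a window without them may still hold a variant. A match is a description of letters, and the data hold no measurement of binding.

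Each of the 3 heavy chain genes also has a microRNA gene within its span. The mature forms are shown, with the seed (bases 2 to 8) in capitals, because they are the microRNAs carried by these heavy chain genes: miR-208a of Myh6 and miR-208b of Myh7 share the seed UAAGACG, and miR-499 of Myh7b has UAAGACU.

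mmu-miR-208a-3p: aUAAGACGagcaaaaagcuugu

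mmu-miR-208b-3p: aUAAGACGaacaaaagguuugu

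mmu-miR-499-5p: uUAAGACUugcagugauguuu

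The probe sets named for Mir208a, Mir208b and Mir499 read between 2.37 and 2.74 log2 on all 12 arrays, below the array median of 3.31 to 3.32 over the named genes. They were not tested, and the transcript they detect was not determined here.

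Values are log2 expression as deposited, and differences are log2 differences with limma's standard error (SE). The 7 comparisons were Iso minus untreated in WT, in DKO and as the mean over both genotypes, the DKO minus WT difference of the Iso effects, and DKO minus WT without Iso, with Iso and as the mean over both treatments. A difference passed at a Benjamini-Hochberg adjusted p under 0.05 over all 13737 genes bright enough to be tested, that is, above the array median on at least 3 of the 12 arrays. In these bulk samples fewer cells of a type and less RNA per cell cannot be told apart. Camk2g, a targeted gene, was lower on DKO arrays (group means 3.97 untreated and 3.96 with Iso, against 5.14 and 5.63 in WT; mean difference -1.42, SE 0.14, limma adjusted p = 0.000398). Camk2d, the other, differed by -0.32 (SE 0.12, limma adjusted p = 0.326), and whether its probes lie in the deleted part is not known here. Untreated DKO array 3 stood apart, with a median correlation of 0.956 with the other arrays, against 0.984 to 0.988 for these. All 12 cardiomyocyte markers, among them Tnnt2, Actc1 and Ryr2, were above the array median on at least 1 array, and their mean level was 11.84 to 12.06 log2 on every array.

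Of the 7 members, Mhrt rose with Iso in the mean over both genotypes, and Myh7 and Mylk3 were lower in DKO in the mean over both treatments. The rise of Mhrt was 1.36-fold and Mylk3 was 1.61-fold lower. Myh7 differed by -0.82 log2, with DKO levels so close to the array median that no exact fold is given. All 3 calls depend on how the 2 arrays of a mouse are treated. They held with the mouse as a random block. That block used 1 correlation for all genes (0.0333), so it differed little from the fit without it and could hardly end a call. The calls were lost with the mouse as a fixed block for Mhrt (limma adjusted p = 0.117) and with 1 mean value per mouse for Myh7 (0.132) and Mylk3 (0.140). Myh6, Myh7b, Myl2 and Myl3 passed in none of the 7 comparisons, and no member passed for the difference of the Iso effects. On simulated data the test of that difference found 17% of changes of 1 log2 and 0% of changes of 0.5 log2. Comparisons within 1 genotype or 1 treatment found 11% to 18% of changes of 0.5 log2. A member that did not pass may therefore still differ. In the Iso mean comparison 0.0946% of all genes tested passed as higher, and in the genotype mean comparison 0.328% passed as lower.

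**Figure D2:**
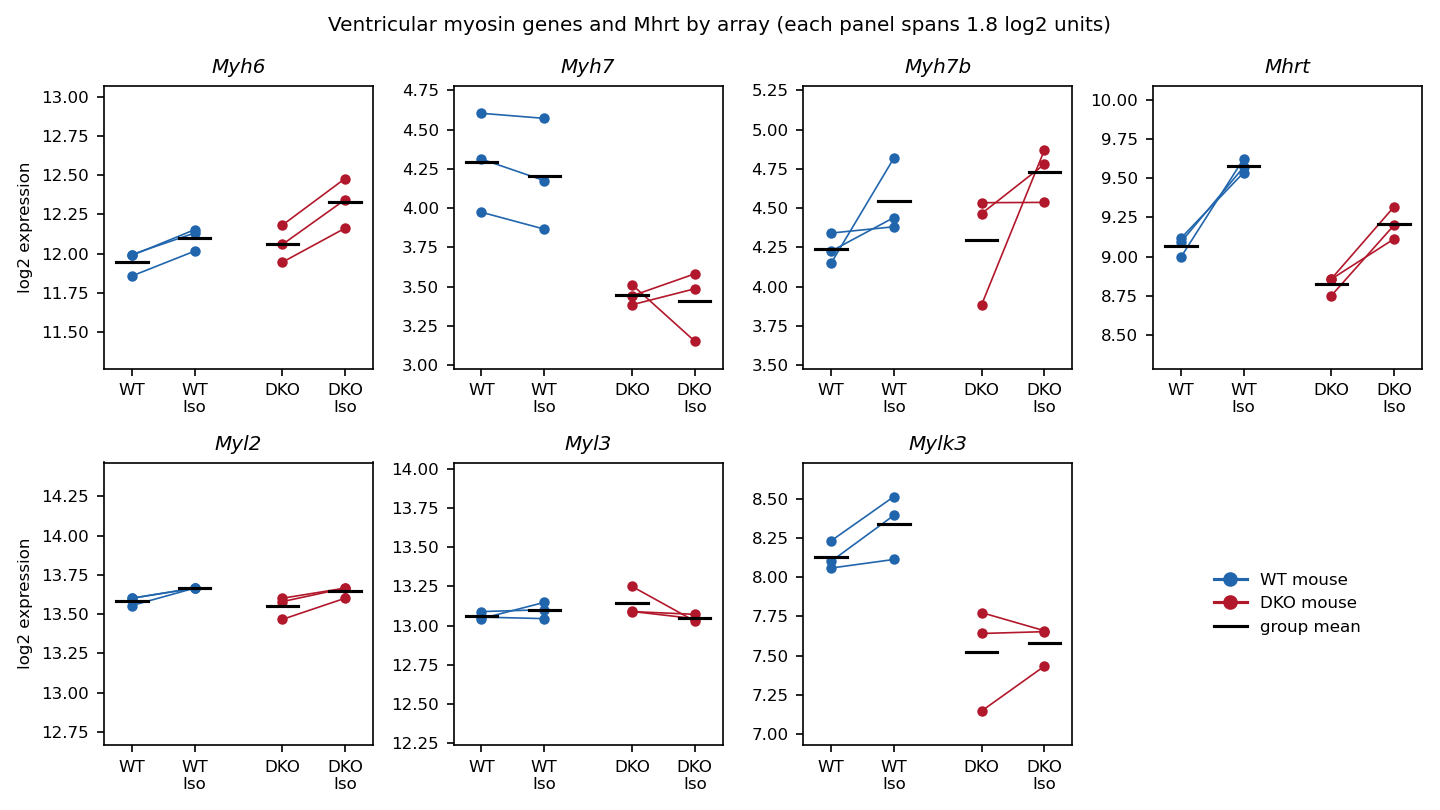
Log2 expression of the 7 members by array, in WT (blue) and DKO (red) without and with Iso; each line joins the arrays of 1 mouse, black bars are group means (n = 3), and every panel spans the same log2 range. Mhrt goes up with Iso in each of the 6 mice, and the DKO points of Myh7 and Mylk3 lie below the WT points.

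Among the heavy chains, Myh6 was the brightest, at 11.86, 11.99 and 11.99 on untreated WT arrays 1 to 3 and 12.02, 12.15 and 12.13 with Iso. In DKO it read 12.06, 12.18 and 11.95 untreated and 12.34, 12.48 and 12.16 with Iso. The Iso arrays lay above the untreated ones within WT, as for 7.16% of the genes tested, the DKO ranges overlapped, and all 6 mice went up. The change per mouse was 0.21 ± 0.07 (SD, n = 6), and 480 of the genes tested, or 3.49%, likewise went up in 6 of 6 mice. This difference did not pass: the Iso mean was 0.21 (SE 0.09, limma adjusted p = 0.289), with 0.15 in WT (adjusted p = 0.909) and 0.27 in DKO (adjusted p = 0.267). The change was 0.14 to 0.16 in the WT mice and 0.22 to 0.30 in the DKO mice, without overlap, and 9.73% of the genes tested separated the mice in the same way. The test of that difference gave 0.11 with a 95% interval from -0.26 to 0.49 (limma adjusted p = 0.832). By group mean, Myh6 was ordered untreated WT (11.95), untreated DKO (12.06), Iso-treated WT (12.10) and Iso-treated DKO (12.33). Untreated DKO differs from both its neighbours by less than its SD of 0.12, while Iso-treated DKO lay above Iso-treated WT without overlap, as for 9.03% of the genes tested. The DKO minus WT mean of 0.17 (SE 0.09) did not pass (limma adjusted p = 0.513).

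Myh7, the slow heavy chain, was dim. Its DKO arrays lay from 0.16 log2 below to 0.27 log2 above the array median, the limit of the filter, and its WT arrays 0.55 to 1.29 above it, so that the size of a genotype difference is uncertain. It read 4.31, 4.60 and 3.97 in untreated WT and 4.17, 4.57 and 3.87 in Iso-treated WT. The DKO values were 3.38, 3.51 and 3.44 untreated and 3.49, 3.15 and 3.58 with Iso. No DKO array reached the lowest of the 6 WT arrays, and 93 of the genes tested (0.677%) had all 6 DKO values below the WT range.

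The mean genotype difference of Myh7 was -0.82 (SE 0.14, limma adjusted p = 0.0202), placing it at position 40 by p among the 75 genes that passed in either direction (0.546%). The difference was -0.85 without Iso (SE 0.20, adjusted p = 0.125) and -0.80 with Iso (SE 0.20, adjusted p = 0.166), neither of which passed. Each mouse enters the mean comparison with 2 arrays. With the mouse as a random block the adjusted p was 0.0222, and with 1 mean value per mouse, 3 mice against 3, it was 0.132. Leaving out untreated DKO array 1, Iso-treated DKO array 1 or 2, untreated WT array 1 or 2, or Iso-treated WT array 1 or 2 also ended the call, with adjusted p-values of 0.0507 to 0.0671. The WT mice also differed among themselves: mouse 5 gave 4.60 and 4.57, mouse 4 gave 4.31 and 4.17 and mouse 6 gave 3.97 and 3.87, so that in WT the spread lay between mice and not between treatments. The random block used 1 correlation for all genes and so does not describe this spread of Myh7. Iso changed Myh7 by -0.07 in the mean (SE 0.14, 95% interval -0.37 to 0.24, limma adjusted p = 0.880), with 2 mice up and 4 down. In the order of group means, untreated WT (4.30) and Iso-treated WT (4.20) were the highest and did not differ beyond their SDs of 0.32 and 0.35. Untreated DKO (3.45) and Iso-treated DKO (3.41) followed, a step of less than their SDs of 0.06 and 0.23.

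The Myh7 minus Myh6 difference was also followed by array, set to 0 at the mean of the 12 arrays and given with no test. It was 0.73, 0.89 and 0.25 in untreated WT and 0.43, 0.69 and 0.01 in Iso-treated WT. In DKO it was -0.40, -0.40 and -0.23 untreated and -0.59, -1.06 and -0.31 with Iso. Every WT array was above 0 and every DKO array below it. Myh7 alone separated the genotypes too, and the share of gene pairs that do so was not counted. In the group means this difference shifted by -0.996 log2 from WT to DKO (mean of both treatments) and by -0.28 from untreated to Iso (mean of both genotypes). Its SDs were 0.33 in untreated WT, 0.35 in Iso-treated WT, 0.10 in untreated DKO and 0.38 in Iso-treated DKO. Within each genotype the untreated and Iso-treated arrays overlapped. On leaving out 1 array the Iso shift was -0.37 to -0.17, at -0.17 when Iso-treated DKO array 2 was left out and at -0.18 when it was Iso-treated WT array 3. With Myh7 in DKO at the array median, the genotype shift has no exact size. The values describe the shift of the difference and not which heavy chain is the more abundant, since probe sets differ in brightness.

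Myh7b, a slow-type heavy chain gene that hosts miR-499, read 4.23, 4.34 and 4.15 in untreated WT and 4.44, 4.38 and 4.82 with Iso. The DKO values were 4.47, 3.89 and 4.53 untreated and 4.78, 4.87 and 4.54 with Iso. Myh7b was dim too, at 0.57 to 1.55 log2 above the array median. The Iso arrays lay above the untreated ones within each genotype, and all 6 mice went up, by 0.002 to 0.98. In DKO this separation rested on 4.536 with Iso against 4.534 untreated, both of mouse 3. The same separation in each genotype was seen for 150 of the genes tested (1.09%). The Iso mean of 0.37 (SE 0.13) did not pass (limma adjusted p = 0.214). The mean genotype difference was 0.12 (SE 0.13, limma adjusted p = 0.810), and the ranges of WT and DKO overlapped in both treatments.

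Mhrt read 8.996, 9.12 and 9.09 in untreated WT and 9.62, 9.54 and 9.57 in Iso-treated WT. The DKO arrays gave 8.86, 8.86 and 8.75 untreated and 9.32, 9.11 and 9.20 with Iso. Within each genotype every Iso array lay above every untreated array, which held for the 1.09% of genes given above. The mice changed by 0.63, 0.42 and 0.48 in WT and by 0.46, 0.26 and 0.45 in DKO, so that all 6 went up.

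**Figure D3:**
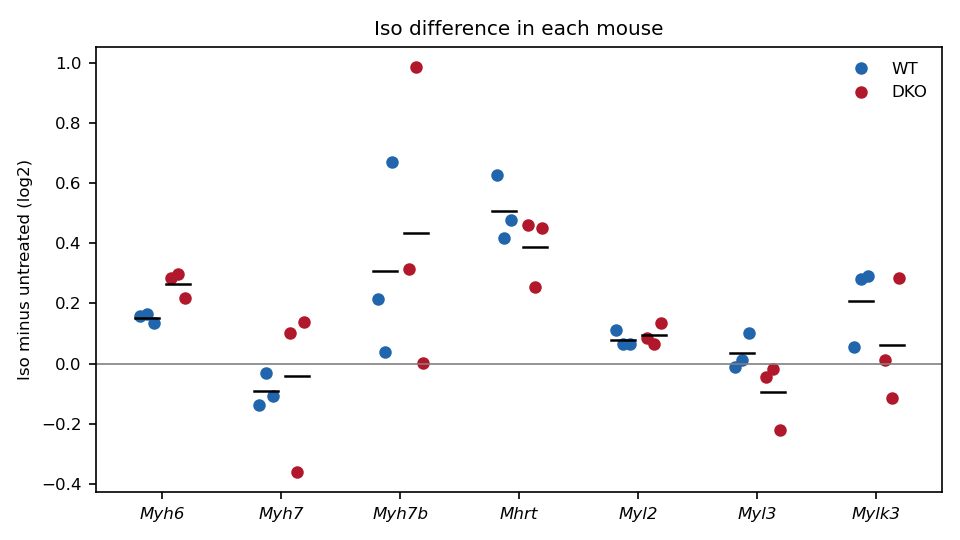
Iso minus untreated log2 difference of each member in each mouse, WT mice in blue and DKO mice in red, with black bars for the mean of 3 mice. Mhrt lies between 0.26 and 0.63 in the 6 mice; Myh7 and Myl3 scatter around 0.

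The Iso mean of Mhrt was 0.45 (SE 0.08, limma adjusted p = 0.0490), at position 17 by p of the 17 genes that passed (0.124% of those tested). Its place at the threshold shows in the alternatives. The adjusted p was 0.0422 with the mouse as a random block, 0.117 with the mouse as a fixed block, 0.0530 with trend and robust variances and 0.0520 with the stricter filter on dim genes. On leaving out 1 array the rise was 0.42 to 0.47, and the adjusted p stayed under 0.05 without untreated DKO array 2 or 3 and was 0.0633 to 0.167 without any 1 of the other 10 arrays. Within a genotype the rise did not pass: it was 0.51 in WT (SE 0.11, limma adjusted p = 0.333) and 0.39 in DKO (SE 0.11, adjusted p = 0.107). Among WT arrays alone 0.0218% of genes passed with Iso, and among DKO arrays 0.051%. The rise in DKO minus that in WT was -0.12 with a 95% interval from -0.45 to 0.21 (limma adjusted p = 0.795), and 0.0146% of genes passed for this difference. At an unadjusted p under 0.05, limma counted 1 of the 7 members for the Iso effect in WT, against 6.7% of all genes tested. It counted 3 members in DKO, against 18.4%, and 0 members for the difference of the Iso effects, against 10.1%.

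Mhrt was also lower in DKO within each treatment without overlap of the arrays, as were 168 of the genes tested (1.22%), but the genotype difference did not pass. It was -0.31 in the mean (SE 0.08, limma adjusted p = 0.117), -0.25 without Iso (adjusted p = 0.339) and -0.37 with Iso (adjusted p = 0.295). The group means were ordered untreated DKO (8.82), untreated WT (9.07), Iso-treated DKO (9.21) and Iso-treated WT (9.58). Arrays of neighbouring groups in this order did not overlap, except that untreated WT reached 9.12 and Iso-treated DKO began at 9.11. The mean level of the cardiomyocyte markers was 11.85 to 11.93 log2 in untreated WT and 11.96 to 12.06 in Iso-treated WT, without overlap, and 11.84 to 11.90 and 11.89 to 11.99 in DKO, where the ranges overlapped. Its part in the Mhrt result was not tested.

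The ventricular light chains were among the brightest genes on the arrays and passed in no comparison. Myl2 read 13.55, 13.60 and 13.60 in untreated WT and 13.67 on all 3 Iso-treated WT arrays. The DKO values were 13.58, 13.60 and 13.47 untreated and 13.67, 13.67 and 13.60 with Iso. The tied values come with the shared distribution of the arrays: Myl2 was among the 10 brightest probe sets throughout, and the highest value of any probe set is 13.83, so a further rise could hardly show. All 6 mice went up, by 0.06 to 0.13, and the Iso mean of 0.09 (SE 0.07) did not pass (limma adjusted p = 0.617).

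Myl3 read between 13.03 and 13.25 on the 12 arrays. Within DKO its Iso arrays (13.03 to 13.07) lay below the untreated ones (13.09 to 13.25), as for 10.7% of the genes tested, while the WT ranges overlapped. Its Iso mean was -0.03 (SE 0.07, 95% interval -0.19 to 0.13, limma adjusted p = 0.898). The mean genotype difference was 0.02 for Myl3 (SE 0.07, 95% interval -0.14 to 0.17, limma adjusted p = 0.971) and -0.03 for Myl2 (SE 0.07, interval -0.18 to 0.13, adjusted p = 0.934).

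Mylk3 read 8.06, 8.23 and 8.10 in untreated WT and 8.11, 8.51 and 8.39 in Iso-treated WT. In DKO it read 7.64, 7.77 and 7.15 untreated and 7.65, 7.66 and 7.43 with Iso. As for Myh7, the highest DKO array was below the lowest WT array. The lowest value is that of the untreated DKO array 3, which stood apart overall.

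The mean genotype difference of Mylk3 was -0.68 (SE 0.12, limma adjusted p = 0.0230), at position 42 by p. It was -0.61 without Iso (SE 0.17, adjusted p = 0.174) and -0.76 with Iso (SE 0.17, adjusted p = 0.110). Of all genes tested 0.204% and 0.306% passed in these comparisons, and of the 7 members none. At an unadjusted p under 0.05, limma counted 3 members in each, Myh7, Mhrt and Mylk3, against 13.8% of all genes without Iso and 7.91% with Iso. With the mouse as a random block the adjusted p of the mean difference was 0.0257, and with 1 mean value per mouse it was 0.140. Leaving out any 1 Iso-treated DKO array, any 1 untreated WT array or Iso-treated WT array 2 ended the call too, with adjusted p-values of 0.0617 to 0.0815. Without untreated DKO array 3 the mean difference was -0.59 (limma adjusted p = 0.00877) and still passed, and the difference with Iso passed as well (-0.76, limma adjusted p = 0.0138). Iso changed Mylk3 by 0.14 in the mean (SE 0.12, limma adjusted p = 0.648), with 5 of 6 mice up. By group mean the order was untreated DKO (7.52), Iso-treated DKO (7.58), untreated WT (8.13) and Iso-treated WT (8.34), with SDs of 0.33, 0.13, 0.09 and 0.21. The arrays overlapped between treatments within each genotype and not between genotypes.

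**Figure D4:**
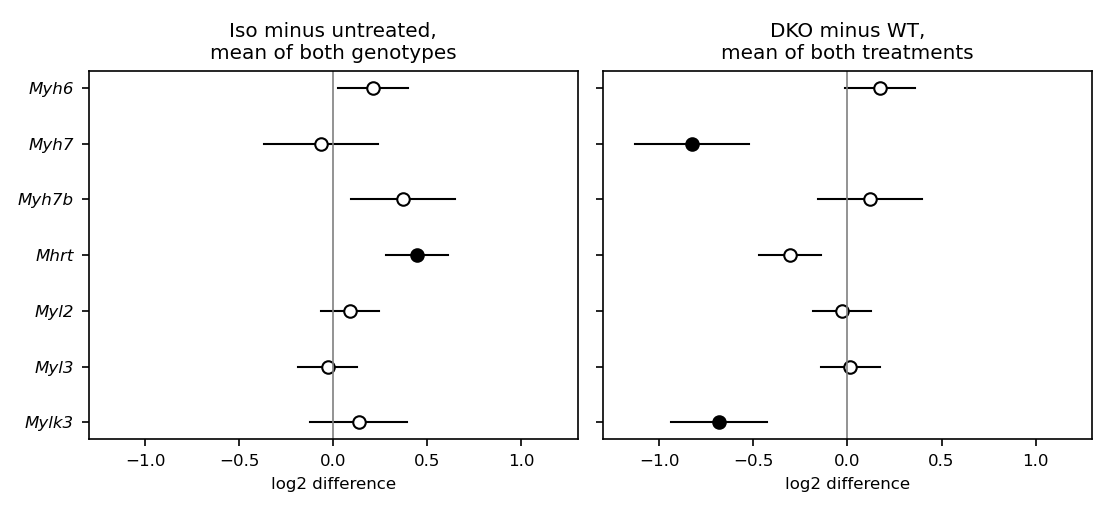
Log2 differences of the 7 members for Iso (mean of both genotypes, left) and for genotype (DKO minus WT, mean of both treatments, right), with 95% intervals from limma; filled points passed at an adjusted p under 0.05 over all genes tested. Mhrt is filled on the left, Myh7 and Mylk3 on the right.

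The atrial genes Sln and Myl7 were high on some of the WT arrays. The atrial calcium pump regulator Sln read 8.33 and 8.11 and the atrial light chain Myl7 8.16 and 7.93 on Iso-treated WT arrays 1 and 2, and untreated WT array 2 followed with 6.29 and 6.54. The other 9 arrays read at most 5.83 for Sln and 5.74 for Myl7. Over the 6 atrial markers the mean level was 5.32 to 6.26 in untreated WT, 5.28 to 6.93 in Iso-treated WT, and in DKO 5.36 to 5.62 untreated and 5.21 to 5.39 with Iso. Of these 6, Nppa, the atrial natriuretic peptide, passed as lower in DKO (mean difference -1.44, SE 0.15, limma adjusted p = 0.000431). The atrial markers did not all move alike. By group mean, 4 of the 5 tested rose with Iso in WT, while Nppa fell from 12.72 to 12.04. Without Iso 4 of the 5 were lower in DKO, while Myl4 was higher (5.46 against 5.04 in WT).

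On the untreated and Iso-treated arrays of mouse 6, chosen after the values were seen, Myl7 read 4.29 and 4.82, below the DKO range of 4.89 to 5.74. Sln read 3.96, inside the DKO range of 3.37 to 5.83, and 3.27, and the mean over the 6 atrial markers was 5.32 and 5.28, inside the DKO range of 5.21 to 5.62. There Myh7 read 3.97 and 3.87, above the highest DKO value of 3.58, and Mylk3 read 8.10 and 8.39, above the highest DKO value of 7.77. Over untreated WT mice 5, 4 and 6, Myh7 (4.60, 4.31 and 3.97) had the same order as Myl7 (6.54, 5.74 and 4.29). With Iso mouse 6 was again the lowest WT mouse in both, but Myl7 was highest in mouse 4 (8.16) and Myh7 in mouse 5 (4.57). Without Iso-treated WT arrays 1 and 2 the genotype mean was -0.66 for Myh7 (limma adjusted p = 0.215) and -0.71 for Mylk3 (adjusted p = 0.129), and the Iso mean of Mhrt was 0.45 (adjusted p = 0.352). None of the 3 passed without these 2 arrays, and the part of atrial cells in the genotype results was not tested.

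**Figure D5:**
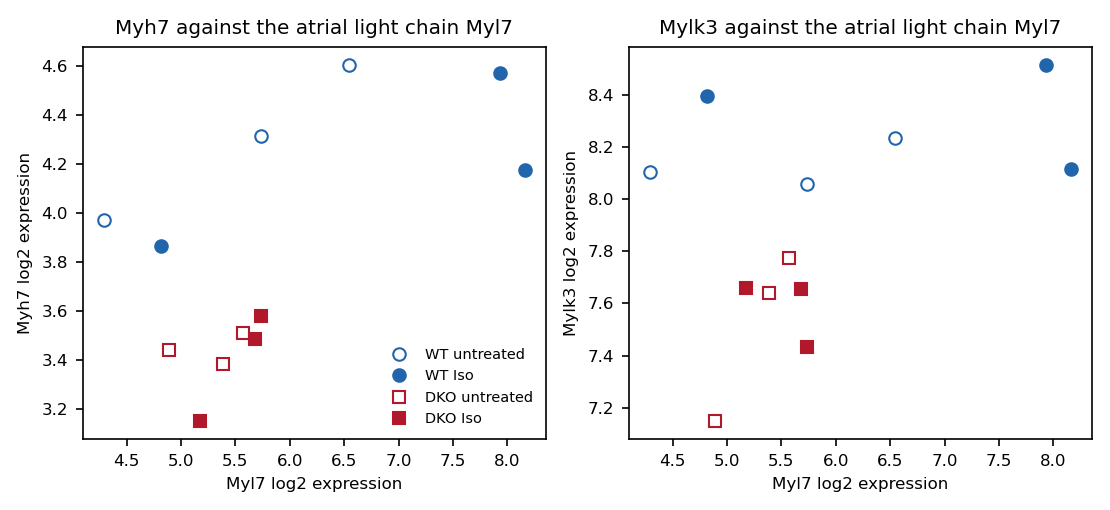
Myh7 (left) and Mylk3 (right) against the atrial light chain Myl7, all in log2 expression, with 1 point per array: circles are WT, squares DKO, open symbols untreated and filled symbols Iso-treated. Myl7 is highest on Iso-treated WT arrays 1 and 2 (8.16 and 7.93) and lowest on the arrays of WT mouse 6 (4.29 and 4.82).

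Markers of other cells were present at lower levels. The mean over 12 endothelial markers was 6.37 to 6.95 on the 12 arrays, that over 9 fibroblast markers 4.49 to 4.83 and that over 6 smooth muscle markers 4.99 to 5.36. Without Iso the endothelial mean was higher in DKO (6.59 to 6.95) than in WT (6.37 to 6.58). So was the smooth muscle mean (5.09 to 5.36 against 5.05 to 5.07). With Iso the DKO and WT ranges overlapped for endothelial (6.43 to 6.65 and 6.53 to 6.84) and smooth muscle markers (5.00 to 5.10 and 4.99 to 5.08). The fibroblast ranges of the genotypes overlapped in both treatments. The mean over 11 macrophage and leukocyte markers was 4.30 to 4.46 in Iso-treated DKO and 4.65 to 4.85 in the other 9 arrays. Cd74 (-0.94, limma adjusted p = 0.0400) and Cd14 (-0.92, adjusted p = 0.0402) were lower in DKO with Iso. The part of any of these cell types in the genotype results was not tested.

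The genes around the members were read from lists of the myosin machinery, and none of their tested members passed in any of the 7 comparisons. Among the other myosin heavy chains, 1 of 8 sarcomeric and smooth-muscle genes was bright enough to be tested, Myh11 of smooth muscle, with an Iso mean of -0.21 (limma adjusted p = 0.310). All 3 non-muscle heavy chains were tested, and the one with the smallest p for Iso was Myh14 at -0.23 (adjusted p = 0.237). Of 10 further light chains 9 were tested, with a median Iso difference of -0.08 and a median genotype difference of -0.06.

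Thick filament partners hold myosin in register, and 7 of 9 could be tested. All 7 had an Iso mean above 0, with a median of 0.16 against 0.00 over all genes tested, of which 50.3% were above 0. This direction was not particular to them, since 10 of the 12 cardiomyocyte markers also had an Iso mean above 0. The giant spring protein titin, Ttn, had 0.72 (SE 0.14, limma adjusted p = 0.0649), the M-band protein Myom1 0.30 (adjusted p = 0.185) and Mybphl 0.29 (adjusted p = 0.371). For genotype 6 of the 7 were below 0, with a median of -0.15, led by Myom2 at -0.37 (SE 0.09, limma adjusted p = 0.116) and Mybphl at -0.40 (adjusted p = 0.311). Of all genes tested 49.2% were above 0 for genotype, and 8 of the 12 cardiomyocyte markers were below 0.

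Of the light chain kinases, phosphatase subunits and calmodulin genes 10 of 14 were tested. Their median Iso difference was 0.22, with Ppp1r12b, a targeting subunit of the myosin phosphatase, at 0.32 (limma adjusted p = 0.163), the kinase Mylk4 at 0.46 (adjusted p = 0.229) and Calm2 at 0.24 (adjusted p = 0.229). Their median genotype difference was -0.04. Among 9 tested genes of myosin folding and turnover, the ubiquitin ligase gene Trim54 had -0.30 for Iso (limma adjusted p = 0.218) and -0.30 for genotype (adjusted p = 0.303), and Smyd2 had -0.36 for genotype (adjusted p = 0.314).

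Of 25 transcription factors and chromatin proteins known to act on the myosin genes 22 were tested, with a median Iso difference of 0.14 and a median genotype difference of -0.04. For Iso the smallest p belonged to Mef2c (0.41, SE 0.08, limma adjusted p = 0.0656), Hdac4 (0.28, adjusted p = 0.157) and Mef2a (0.40, adjusted p = 0.163). MEF2 factors bind muscle gene promoters, and Hdac4 is a deacetylase that represses them. For genotype it belonged to Thra, the thyroid hormone receptor that raises Myh6 and lowers Myh7, at -0.49 (SE 0.12, limma adjusted p = 0.123), and to Mef2c at -0.23 (adjusted p = 0.317).

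The profiles most like those of the members over the 12 arrays are given as descriptions, with no test, since the arrays come from 6 mice and share their groups. For Myh7 the highest Pearson correlations were with Ppbp (0.93), Nppa (0.91) and Asrgl1 (0.90), beside 2 predicted genes. For Myh6 they were with Adam5 (0.93), Atf6 (0.90) and Maml2 (0.89), beside 2 predicted genes. For Mhrt they were with Lat2 (0.93), Pdk4 (0.93), Resf1 (0.92), Mef2c (0.92) and Ppm1k (0.91). Without untreated DKO array 3 these correlations were 0.88 to 0.92. Between the neighbours of the locus the correlation was -0.55 for Myh6 and Myh7, 0.21 for Myh6 and Mhrt and 0.44 for Myh7 and Mhrt. Without untreated DKO array 3 these were -0.68, 0.09 and 0.38.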

How the data were processed

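Total RNA of 12 myocyte cultures was extracted with Trizol and labelled as biotinylated cRNA for Affymetrix arrays, per the labels' protocols. The authors used RMA to summarise the probes, per the submitters' processing notes. The sources used here do not give its version, the array type or the build of the annotation. As deposited, the values are log2 expression, from 2.25 to 13.8, share 1 distribution over all arrays and were used unchanged. Of 25428 probe sets 24705 carried 1 gene symbol and 723 none, giving 24704 genes; for 1 symbol with several probe sets the brighter was kept.

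Genes above the array median, taken over named genes, on at least 3 of 12 arrays were kept (13737; 10967 set aside as dim). A mean per group was fitted over all arrays with limma 3.58.1 (R 4.3.3) and eBayes. Benjamini-Hochberg adjustment ran over the genes kept, with a threshold of 0.05. The script was tested on simulated data. The number of arrays limits the precision of every value.

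Arrays are paired by animal, since the mouse number in the labels occurs once untreated and once treated. Over genes, deviations of paired arrays from their group means correlated at 0.00733 to 0.130 for DKO mice 1 to 3 and at -0.0623 to 0.0566 for WT mice 4 to 6 (consensus 0.0333).

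Named were all 7 members, the 5 genes most correlated with each of Myh6, Myh7 and Mhrt (predicted genes counted only), and from each list the genes that passed and up to 3 with the smallest p in the Iso mean and genotype mean comparisons. The members and lists were chosen with earlier results of these data known. Of the list genes 5 were not analysed here.

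Also tried were no filter, a filter at 6 arrays, eBayes with robust and trended variances, median centring, a further quantile normalisation, the mouse as a random block, the 6 arrays compared alone, and each array left out in turn. Chosen after seeing the data were the mouse as a fixed block, 1 value per mouse, array medians over all probe sets, and leaving out both Iso-treated WT arrays with high atrial genes. Sequences, coordinates and start sites are from RefSeq tables of GRCm38.p6; all 7 members had coordinates there.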

Additional observations from a re-analysis of the deposited data

How the results depend on the processing

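Over 21 or 22 alternatives for each comparison, the count of members that passed stayed at 0 for Iso in WT, Iso in DKO, the difference of the Iso effects and genotype without Iso. For genotype with Iso it was 0 in 20 of 21 and ranged from 0 to 1 on leaving out 1 array. For the Iso mean it was 1, that is Mhrt, and fell to 0 with a filter at 6 arrays, with trend and robust variances, with the mouse as a fixed replicate block and without both Iso-treated WT arrays high in Sln and Myl7. It ranged from 0 to 1 on leaving out 1 array. For the genotype mean it was 2 and fell to 0 with 1 mean value per mouse and without both of these Iso-treated WT arrays, and ranged from 0 to 2 on leaving out 1 array. The random mouse block changed no call of a member, with a consensus correlation of 0.0333 that left the fit nearly unchanged. No member that passed changed its direction under any alternative run. The Myh7 minus Myh6 shift ranged from -1.09 to -0.90 for genotype and from -0.37 to -0.17 for Iso on leaving out 1 array.

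Counts over all genes moved more. For Iso in WT 3 genes passed (2 to 8 over all alternatives), for Iso in DKO 7 (0 to 605), for the Iso mean 17 (1 to 102) and for the difference of the Iso effects 2 (2 to 16). For genotype 28 passed without Iso (2 to 180), 42 with Iso (10 to 163) and 75 in the mean (31 to 244). Limits of the members' values are the 3 mice per genotype, the level of Myh7 near the array median, the ceiling at Myl2, and probe positions and strand that are not known here.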

Other observations

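The difference of Mhrt from each heavy chain by array, set to 0 at the mean of the 12 arrays and given with no test, separated the groups differently for the 2 genes. Mhrt minus Myh6 had group means of 0.06 in untreated WT, 0.42 in Iso-treated WT, -0.30 in untreated DKO and -0.18 in Iso-treated DKO, with SDs of 0.02, 0.12, 0.07 and 0.22 (n = 3). All 6 WT arrays were above 0 and all 6 DKO arrays below it. The share of gene pairs that separate in this way was not counted. Over both treatments the WT and DKO ranges overlapped for Mhrt alone and for Myh6 alone. Their mean genotype differences had opposite signs, and neither passed (-0.31 and 0.17, limma adjusted p = 0.117 and 0.513). Mhrt minus Myh7 had group means of -0.56, 0.04, 0.05 and 0.47 in the same order, with SDs of 0.31, 0.38, 0.09 and 0.17. Here untreated WT was the lowest and Iso-treated DKO the highest. With Myh7 in DKO at the array median, the size of this genotype difference is uncertain too.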
